A study of Mus musculus with 15 samples.

Results

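Collagens and laminins are the structural proteins of the extracellular matrix. The genes described are those that the array design names as collagen chains (Col, a type number, a and a chain number) or as laminin alpha, beta or gamma chains (Lama, Lamb or Lamc and a number). This naming rule uses no measured value. The 53 genes described, of 46544 on the array, have 79 probes, and each gene was read by its brightest probe. Of the 53, 47 were bright enough to be tested among 27336 genes. Col4a3, Col6a5, Col6a6, Col8a1, Col17a1 and Col19a1 did not clearly exceed background on 4 or more arrays in a single group and were not tested.

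RNA came from whole olfactory bulbs of 15 male mice aged 6 to 8 weeks, 5 per group and 1 array per mouse, taken 2 weeks after 500 nL of an adeno-associated virus had been injected. All viruses carried a cargo that only cells with Cre recombinase express. The active CRHR1 group consisted of CRHR1-Cre mice (strain C57Bl/6) given AAV-flex (CA)CRHR1, a constitutively active form of CRHR1, the receptor for the stress peptide corticotropin-releasing hormone (CRH). The labels place this Cre in the bulb's CRHR1+ granule cells and rank the group as high in CRH signalling. The knockout group consisted of CRHR1-/- mice (strain 129S4/SvJae) given AAV-flex GFP, ranked as low, in which the receptor is missing from the whole animal. The Cre GFP group consisted of CRHR1-Cre mice (C57Bl/6) given AAV-flex GFP and stood in for wild type. Whatever sets the knockout mice against the others also crosses strain and Cre, and these cannot be told apart from the receptor's absence. All active CRHR1 arrays sat on slide 2 beside Cre GFP arrays 4 and 5. All knockout arrays sat on slide 1 beside the remaining Cre GFP arrays, 1, 2 and 3.

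A level below is the log2 signal minus the array's 75th percentile, and a change is the difference of 2 group means of levels, given with its SE and the Benjamini-Hochberg adjusted p of limma over all 27336 genes, with 0.05 as the threshold. Levels of different genes come from different probes and were not compared. The 75th percentile itself, a measure of array brightness, lay between 921 and 1171 in the active CRHR1 group, 664 and 961 in the knockout group and 826 and 1034 in the Cre GFP group. Crhr1, the targeted gene, had levels of 2.99 to 3.32 in the knockout group and 3.48 to 3.86 in the Cre GFP group. It fell by 0.47 ± 0.092 in the knockout group (adjusted p = 0.0146), and active CRHR1 differed from Cre GFP by 0.091 ± 0.092 (adjusted p = 0.543). Whether this probe falls inside the deleted stretch was not determined. The bulb markers Eomes and Tbx21, of mitral and tufted cells, and Th, of dopaminergic periglomerular neurons, were well above background on all 15 arrays. Because whole tissue was measured, fewer cells of a type and less RNA per cell cannot be told apart in any result.

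Collagen chains wind around each other into a helix with glycine at regular steps, and they are sorted by what the helix builds: banded fibrils, the type IV sheet of basement membranes, beaded filaments, or molecules that decorate fibrils or span the cell membrane. Laminins are crosses of an alpha, a beta and a gamma chain that bind cell receptors and nucleate the basement membrane. In brain tissue, basement membranes surround vessels and underlie the pia, and fibrillar collagens lie mainly in the meninges and around larger vessels. In the olfactory nerve layer, ensheathing glia and fibroblasts also border such matrix.

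The repeat of glycine codons can be read directly in probes that lie in the helix. Those below are shown for that reason, with capitals marking 6 glycine codons, each 3 codons after the last. The Col15a1 probe, which gave this gene's values, maps to chr4:47283786-47283845 on the plus strand of build mm9, and the second Col25a1 probe, which was not the brightest, to chr3:130270497-130270556 on the plus strand.
Col15a1: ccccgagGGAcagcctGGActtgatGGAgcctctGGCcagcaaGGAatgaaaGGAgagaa
Col25a1: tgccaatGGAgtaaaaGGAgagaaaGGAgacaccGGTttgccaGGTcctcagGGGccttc
Among the 47 probes used, 1 showed this repeat.

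Type IV genes lie in pairs, each pair starting from neighbouring sites in opposite directions. Col4a1 with Col4a2 encodes the network found in every basement membrane, and Col4a5 with Col4a6, and Col4a4 with Col4a3, encode the chains of specialised networks. The 250 bases before the RefSeq transcript start of 5 chains (build GRCm38.p6) are shown because Col4a4, Col4a5 and Col4a6 were called below and Col4a1 and Col4a2 were not. Capitals mark matches on either strand. TATAAA is the TATA box. A CCAAT box reads CCAAT, or ATTGG where it lies on the other strand. The GC box searched was GGGCGG, which on the other strand reads CCGCCC. The windows are chr1:82586850-82587099 (minus strand) for Col4a4, chrX:141475169-141475418 (plus) for Col4a5, chrX:141474077-141474326 (minus) for Col4a6, chr8:11312827-11313076 (minus) for Col4a1 and chr8:11312555-11312804 (plus) for Col4a2.
Col4a4: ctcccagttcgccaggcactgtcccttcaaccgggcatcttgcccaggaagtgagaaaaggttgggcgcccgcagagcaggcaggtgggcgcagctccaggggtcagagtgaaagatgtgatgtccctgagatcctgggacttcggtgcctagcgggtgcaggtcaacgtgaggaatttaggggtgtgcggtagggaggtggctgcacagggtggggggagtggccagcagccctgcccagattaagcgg
Col4a5: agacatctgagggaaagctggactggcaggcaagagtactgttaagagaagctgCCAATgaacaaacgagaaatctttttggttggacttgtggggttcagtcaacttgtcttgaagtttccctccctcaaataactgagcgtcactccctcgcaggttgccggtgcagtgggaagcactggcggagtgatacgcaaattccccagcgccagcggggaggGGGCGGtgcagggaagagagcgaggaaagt
Col4a6: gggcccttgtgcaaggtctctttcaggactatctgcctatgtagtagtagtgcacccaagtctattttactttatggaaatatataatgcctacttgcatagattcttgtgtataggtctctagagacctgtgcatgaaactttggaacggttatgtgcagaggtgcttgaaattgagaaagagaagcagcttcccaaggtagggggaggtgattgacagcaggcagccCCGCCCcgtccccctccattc
Col4a1: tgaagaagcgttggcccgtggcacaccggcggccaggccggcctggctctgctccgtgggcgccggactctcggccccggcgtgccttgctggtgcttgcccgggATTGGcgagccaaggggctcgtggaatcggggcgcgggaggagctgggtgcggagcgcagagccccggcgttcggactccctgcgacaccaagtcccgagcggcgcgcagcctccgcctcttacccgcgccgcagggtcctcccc
Col4a2: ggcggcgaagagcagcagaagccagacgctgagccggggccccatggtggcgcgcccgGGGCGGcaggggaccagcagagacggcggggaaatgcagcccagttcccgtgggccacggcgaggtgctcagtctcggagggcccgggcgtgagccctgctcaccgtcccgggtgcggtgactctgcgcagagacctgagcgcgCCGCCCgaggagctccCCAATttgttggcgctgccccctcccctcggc
Col4a1 and Col4a2 had a GC content of 74.4% and 73.6% in these windows, against 62.8% for Col4a4, 54.0% for Col4a5, 47.6% for Col4a6 and a median of 52.4% over all 32817 windows. None of the 5 held TATAAA, which 12.4% of all windows hold. GGGCGG, present in 32.7% of all windows, was found in those of Col4a5, Col4a6 and Col4a2. CCAAT, present in 33.8%, was found in those of Col4a5, Col4a1 and Col4a2. Of the 53 genes, 40 had a window, of which 5 held the TATA box, 14 the CCAAT box and 23 the GC box in any of their windows. These counts are per gene, whereas the shares above are per window.

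Knockout bulbs were set against Cre GFP bulbs to ask which matrix genes go with low CRH signalling, a contrast that also spans both strains. Among the 47 genes, 6 rose and 0 fell, which is 12.8% against 3.34% of all genes tested (1.95% higher and 1.38% lower). The rises were the basement membrane collagens Col4a4, Col4a5 and Col4a6, the fibrillar collagen Col3a1, the fibril-associated Col9a2 and the vascular laminin chain Lama4. The rises ran from 0.42 for Col9a2 to 0.81 for Col4a4 on the log2 scale. Over the 47 genes the median change was 0.076, against 0.0049 over all genes, and the median size of change was 0.27 against 0.14. At an unadjusted p under 0.05, 20 of 47 differed, against 19.8% of all genes.

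Col4a4, a chain of the network best known from the kidney glomerulus, had levels of -3.38, -3.30, -3.30, -3.15 and -3.50 on the active CRHR1 arrays, -2.77, -2.50, -2.83, -2.85 and -2.27 on the knockout arrays and -3.62, -3.64, -3.67, -3.40 and -2.94 on the Cre GFP arrays. All knockout arrays lay above all Cre GFP arrays. The rise was 0.81 ± 0.15 (adjusted p = 0.00978), or 1.75-fold, in knockout against Cre GFP. The probe lies at chr1:82447879-82447938 on the minus strand (mm9). Col4a3, its partner across the shared start, was well above background on 0 arrays.

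Col4a5, which joins both specialised networks, had levels of -2.06, -2.08, -2.37, -2.16 and -1.96 in the active CRHR1 group, -1.91, -1.63, -1.26, -1.53 and -1.69 in the knockout group and -2.31, -2.27, -2.12, -2.02 and -2.02 in the Cre GFP group. The knockout and Cre GFP ranges did not overlap, and the rise was 0.54 ± 0.11 (adjusted p = 0.0209). Col4a6, its neighbour on the X chromosome and a chain of smooth muscle and epithelial basement membranes, had levels of -1.87, -2.21, -2.24, -2.17 and -1.89 in the active CRHR1 group, -1.74, -1.65, -1.22, -1.43 and -1.92 in the knockout group and -2.17, -2.24, -2.06, -1.99 and -2.09 in the Cre GFP group. Here too knockout and Cre GFP did not overlap, with a rise of 0.52 ± 0.12 (adjusted p = 0.0337). Its second probe, also well above background on all 15 arrays, differed by 0.14, and with both probes averaged the adjusted p was 0.0532. For both genes the active CRHR1 arrays overlapped the Cre GFP range.

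The common type IV chains did not pass the test. Col4a1 had levels of 1.28, 1.12, 1.07, 1.01 and 1.36 in the active CRHR1 group, 1.22, 0.91, 1.09, 0.62 and 0.33 in the knockout group and 1.11, 0.66, 1.03, 1.26 and 0.67 in the Cre GFP group, with a knockout difference from Cre GFP of -0.11 ± 0.16 (adjusted p = 0.743). Col4a2 had 1.24, 1.17, 1.10, 1.05 and 1.35 in the active CRHR1 group, 1.33, 1.07, 1.11, 0.83 and 0.63 in the knockout group and 1.25, 0.92, 1.04, 1.29 and 0.89 in the Cre GFP group, with a knockout difference from Cre GFP of -0.084 ± 0.12 (adjusted p = 0.748). In both genes the groups overlapped, and knockout array 5 was the lowest of all 15 arrays. Whether the changes of the common and the specialised chains differ was not tested.

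**Figure D1:**
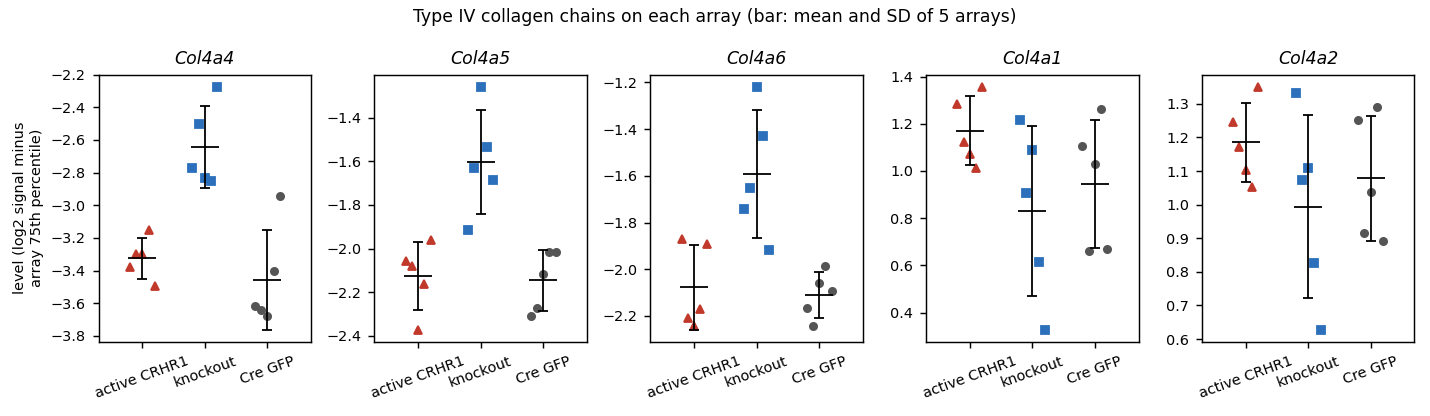
Levels of 5 type IV collagen genes on each array, in the active CRHR1, knockout and Cre GFP groups (5 arrays each), with the mean and SD. For Col4a4, Col4a5 and Col4a6 all 5 knockout arrays lie above all 5 Cre GFP arrays, whereas for Col4a1 and Col4a2 the groups overlap.

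Of the 11 fibrillar genes, only Col3a1 passed the test in knockout against Cre GFP bulbs. Col3a1, the chain of reticular fibres in vessel walls and meninges, had levels of -0.34, -0.61, 0.24, -0.16 and -0.16 in the active CRHR1 group, 0.46, 0.42, 0.75, 0.74 and 0.21 in the knockout group and -0.56, -0.53, -0.22, -0.17 and 0.20 in the Cre GFP group. The lowest knockout array, array 5 at 0.21, lay just above the highest Cre GFP array at 0.20. The rise was 0.77 ± 0.17 (adjusted p = 0.0281), or 1.71-fold.

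Col1a1 and Col1a2 encode the chains of type I collagen, the main fibrillar collagen of connective tissue. Col1a1 had levels of 1.31, 0.67, 1.51, 2.38 and 1.64 in the active CRHR1 group, 2.01, 1.23, 2.32, 3.25 and 1.49 in the knockout group and 0.48, 0.79, 1.41, 1.54 and 1.83 in the Cre GFP group, with a knockout difference from Cre GFP of 0.85 ± 0.39 (adjusted p = 0.243). Col1a2 had levels of 3.79, 3.41, 3.78, 4.33 and 3.86 in the active CRHR1 group, 4.31, 4.03, 4.60, 5.21 and 4.05 in the knockout group and 3.41, 3.63, 3.80, 3.88 and 4.08 in the Cre GFP group, with a knockout difference from Cre GFP of 0.68 ± 0.22 (adjusted p = 0.107). In both, knockout array 4 stood highest of all 15 arrays and the groups overlapped. Active CRHR1 array 4 was likewise the highest of its group for both.

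Col9a2, a chain of the collagen that coats cartilage fibrils, was among the 8 tested fibril-associated genes the only one called. Its levels were 1.72, 1.65, 2.08, 2.08 and 2.07 in the active CRHR1 group, 2.46, 2.60, 2.33, 2.55 and 2.45 in the knockout group and 2.10, 1.98, 2.02, 2.11 and 2.08 in the Cre GFP group. The knockout arrays lay above all others. Its rise of 0.42 ± 0.092 (adjusted p = 0.0258) came with a small spread, an SD of 0.10 in the knockout and 0.055 in the Cre GFP group. The other chains of the same molecule gave -0.041 for Col9a1 and -0.06 for Col9a3 (adjusted p = 0.893 and 0.885).

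Lama4, the alpha chain of endothelial basement membranes, had levels of 0.34, 0.063, 0.43, 0.35 and 0.45 in the active CRHR1 group, 0.69, 0.78, 0.82, 0.82 and 0.57 in the knockout group and 0.18, 0.063, 0.38, 0.31 and 0.56 in the Cre GFP group. The knockout and Cre GFP ranges met closely, the lowest knockout array at 0.57 and the highest Cre GFP array at 0.56. The rise was 0.43 ± 0.10 (adjusted p = 0.0298). Lamc1, the gamma chain of most vascular and pial laminins, had levels of 2.49, 2.16, 2.39, 2.36 and 2.06 in the knockout group and 1.65, 1.74, 1.99, 2.13 and 2.02 in the Cre GFP group. These groups overlapped, with a difference of 0.39 ± 0.11 that missed the threshold (adjusted p = 0.0701).

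The remaining vascular chains showed smaller differences that did not pass. Lamb1, the beta partner of Lama4, had levels of 1.21, 1.17, 1.34, 1.18 and 1.17 in the knockout group and 0.72, 0.86, 1.15, 1.31 and 1.24 in the Cre GFP group, a difference of 0.16 ± 0.11 (adjusted p = 0.432). Lamb2, the beta chain of mature vessel and synaptic laminins, had 1.75, 1.82, 1.89, 1.84 and 1.74 in the knockout group and 1.61, 1.57, 1.66, 1.69 and 1.78 in the Cre GFP group, a difference of 0.15 ± 0.057 (adjusted p = 0.165). Both overlapped between groups. Lama2, the chain of muscle, Schwann cell and astroglial laminins, had 0.68, 0.72, 0.87, 0.98 and 0.58 in the knockout group and 0.80, 0.59, 0.61, 0.73 and 0.96 in the Cre GFP group, a difference of 0.027 ± 0.09 (adjusted p = 0.900). Lama5, the other endothelial alpha chain, had 0.87, 0.86, 0.73, 0.74 and 0.43 in the knockout group and 1.22, 0.82, 0.50, 0.73 and 0.57 in the Cre GFP group, a difference of -0.04 ± 0.13 (adjusted p = 0.893). Neither of these last genes separated the groups.

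**Figure D2:**
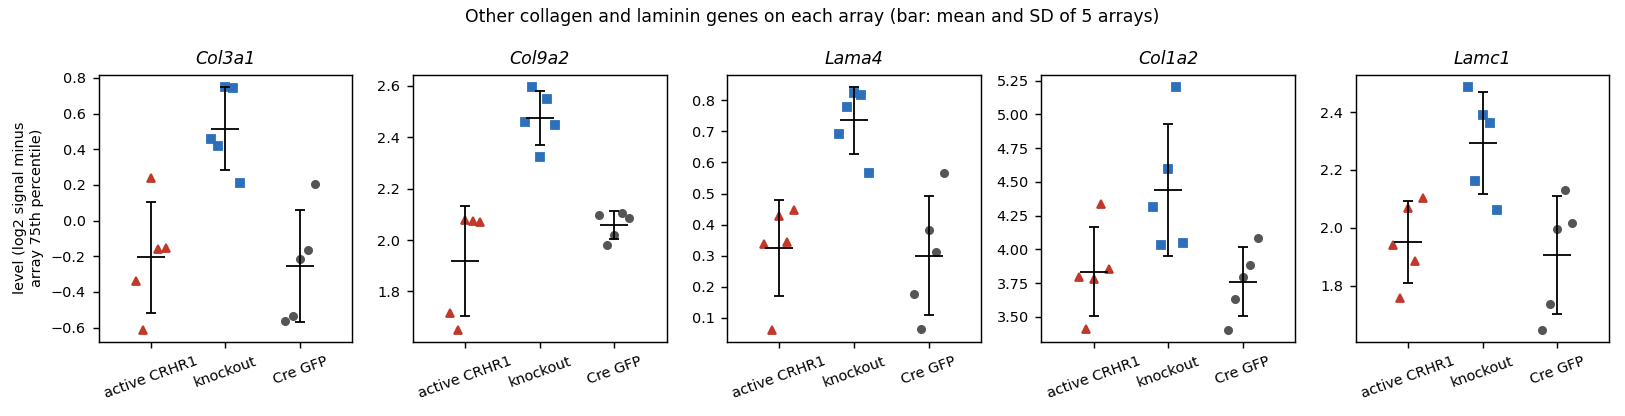
Levels of Col3a1, Col9a2, Lama4, Col1a2 and Lamc1 on each array, in the active CRHR1, knockout and Cre GFP groups (5 arrays each), with the mean and SD. Col3a1, Col9a2 and Lama4 are higher on all knockout than on all Cre GFP arrays, and Col1a2 and Lamc1 overlap between the groups.

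Arrays did not overlap between knockout and Cre GFP for 7 of the 47 genes, against 5.57% of all genes. Of these, 6 were the called genes and the other was Col14a1, which decorates type I fibrils. It had levels of -4.19, -3.15, -4.28, -4.36 and -4.02 in the knockout group and -4.53, -4.42, -5.05, -4.66 and -4.90 in the Cre GFP group, a difference of 0.71 ± 0.22 that missed the threshold (adjusted p = 0.0887). Its second probe differed by 0.72, and with both probes averaged Col14a1 was called. The largest difference, at 0.94 ± 0.49, was that of Col28a1, a collagen with von Willebrand A domains known from peripheral nerve (adjusted p = 0.307). Its knockout arrays spread over -3.94, -4.80, -2.64, -2.93 and -5.48, beyond the Cre GFP range of -4.33, -4.58, -5.46, -5.14 and -4.98 on both sides. Col28a1 was well above background on 4 active CRHR1, 4 knockout and 5 Cre GFP arrays. All 4 type VI genes tested and both genes of types VIII and X failed the test, with differences between -0.72 for Col6a4 and 0.23 for Col10a1. The 3 transmembrane and both multiplexin genes gave differences from 0.18 for Col25a1 to 0.84 for Col15a1, and none passed.

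Of the 6 calls, 5 were lost in at least 1 omission of a single array. With 1 of the 15 arrays left out at a time, Col4a4 was called each time, with a highest adjusted p of 0.0273. Col4a5 lost its call once, without knockout array 4 (0.0538), Col9a2 5 times, Col3a1 6 times, Lama4 7 times and Col4a6 8 times. Without knockout array 4, 1 of the 47 was called. Without Cre GFP array 2, 3 or 4 it was 2, and without knockout array 2 or 3 or Cre GFP array 1 it was 3. With slide as a block, where the difference is that within slide 1, Col4a4 (1.00), Col3a1 (0.95), Col4a5 (0.63) and Lama4 (0.53) stayed called, with adjusted p of 0.00434, 0.0221, 0.0306 and 0.0309. Tested on slide 1 arrays alone, only Col4a4 passed (adjusted p = 0.0394). Without knockout arrays 2 and 5, doubted in earlier work on these data, Col3a1 and Col4a6 were called, and Col4a4, at 0.64, was not (adjusted p = 0.0608).

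Markers of several cell types were called as well, in a comparison where 3.34% of all genes tested were called. Of 8 pericyte markers, 6 rose in the knockout group (Rgs5, Kcnj8, Abcc9, Pdgfrb, Notch3 and Higd1b), and the mean level of the list was -0.19 to -0.11 on knockout arrays and -0.80 to -0.61 on Cre GFP arrays. Of 10 endothelial markers, 0 were called in limma's test (2 at an unadjusted p under 0.05), with mean levels of 0.41 to 0.60 in the knockout group and 0.21 to 0.57 in the Cre GFP group. Lum, 1 of 10 fibroblast markers, rose by 0.72 (adjusted p = 0.00479), and the list lay at 1.53 to 1.69 in the knockout group and 1.33 to 1.55 in the Cre GFP group. Ensheathing glia markers rose in 3 of 7 cases (Ngfr, Npy and Sox10), with list means of 3.67 to 3.90 in the knockout group and 3.30 to 3.60 in the Cre GFP group. None of 6 smooth muscle markers was called by limma (4 at an unadjusted p under 0.05), at list means of -1.84 to -1.23 in the knockout group and -2.16 to -1.73 in the Cre GFP group. Astrocyte markers rose in 2 of 6 cases (Slc1a3 by 0.37 and Aqp4 by 0.34), Gfap differed by -0.80 without overlap (adjusted p = 0.0525), and the list means overlapped, at 2.82 to 2.99 in the knockout group and 2.82 to 3.06 in the Cre GFP group. Matn1, 1 of 6 cartilage and bone markers, fell, and so did Snap25 among 5 neuronal markers. Matn1 was well above background on 4 Cre GFP arrays and on 0 knockout arrays. The part of these cell types in the collagen and laminin changes was not tested.

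Among genes that make, bind or cut collagens and laminins, several were called in knockout against Cre GFP. Over all genes tested the share called was 3.34%, and no list was tested against it. Of 28 genes for collagen processing tested, Crtap, a part of the proline hydroxylation complex, rose by 0.28 ± 0.063, while P4ha2, a collagen prolyl hydroxylase subunit, changed by -0.68 ± 0.17 and Creb3l1, a transcription factor of collagen secretion, by -0.34 ± 0.080 (adjusted p of limma = 0.0282, 0.0478 and 0.0323). None of 18 basement membrane partners such as nidogens and perlecan passed limma's test, with 10 at an unadjusted p under 0.05 and a median difference of 0.27. Of 20 receptors, Itga6, an alpha chain of laminin-binding integrins, rose by 0.31 (adjusted p = 0.0218). Of 23 proteases and inhibitors, the gelatinase Mmp2 (0.71), the collagenolytic cathepsin Ctsk (0.66) and Adamts1 (0.44) rose, and 0 fell. Of 26 other matrix genes, Lum (0.72), Vtn (0.49), Fbln5 (0.48) and Ncan (0.40) rose, which encode lumican, vitronectin, fibulin and neurocan, and 0 fell. Of 17 TGF-beta genes, the latent TGF-beta binding protein gene Ltbp2 fell by 1.09 ± 0.12 (adjusted p = 0.000282).

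Active CRHR1 bulbs were set against Cre GFP bulbs, within 1 strain, to ask what goes with raised CRH signalling in CRHR1+ granule cells. Of the 47 genes 0 were called in limma's test, against 8.49% of all genes tested (3.91% higher and 4.58% lower). At an unadjusted p under 0.05 the count was also 0, against 27.1% of all genes. For each of the 47 the active CRHR1 and Cre GFP arrays overlapped, while 10.4% of all genes had arrays that did not. The median difference of the 47 genes was 0.033, against -0.065 over all genes, and the median size of change was 0.14 against 0.16. With slide as a block, where the difference is that within slide 2, the median differences were -0.11 and -0.062.

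The largest difference from Cre GFP was again that of Col28a1, at -0.48 ± 0.49 (adjusted p = 0.553), with levels of -6.34, -5.13, -4.47, -5.44 and -5.50 in the active CRHR1 group, which overlap the Cre GFP levels given above. The 5 type IV genes gave differences from 0.02 for Col4a5 to 0.23 for Col4a1, and none passed. For the laminin chains the levels of the active CRHR1 arrays were 0.67, 0.73, 0.55, 0.73 and 0.81 for Lama2 and 0.79, 1.11, 0.99, 0.99 and 0.97 for Lama5. They were 1.16, 1.02, 1.03, 0.94 and 1.23 for Lamb1, 1.61, 1.67, 1.69, 1.68 and 1.79 for Lamb2 and 1.94, 1.76, 2.07, 1.89 and 2.10 for Lamc1. Each of these ranges overlapped that of Cre GFP, and the differences were -0.042, 0.20, 0.02, 0.026 and 0.045 in the same order, with adjusted p from 0.316 to 0.923.

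Several genes acting on the matrix were called in active CRHR1 against Cre GFP, where 8.49% of all genes tested were called. No list was tested against that share. Of 23 proteases and inhibitors, 4 rose and 2 fell. Mmp2 rose by 1.09 ± 0.15 (adjusted p = 0.000705), the elastolytic cathepsin Ctss by 1.45 ± 0.21 (0.000899), the urokinase gene Plau by 0.90 ± 0.18 (0.00802) and the inhibitor Timp1 by 0.85 ± 0.18 (0.00962), while Mmp17 and Adamts5 changed by -0.56 and -0.59. Plau was well above background on 4 active CRHR1 arrays and on 0 Cre GFP arrays, so its difference is set against background signal. Of 20 receptors, Cd44 (0.95), the collagen receptors Lair1 (0.68) and Ddr2 (0.35) rose and the syndecan gene Sdc2 (-0.25) fell. Of 28 processing genes, Adamts14 (0.70) and Creb3l1 (0.33) rose, and P3h1 (-0.47) and Loxl1 (-0.38) fell. Tgfb1, which encodes a growth factor known to raise collagen synthesis, rose by 0.53 ± 0.12 (adjusted p = 0.0145), the only call among 17 genes of its list. None of 26 other matrix genes and none of 18 basement membrane partners passed limma's test, with 6 and 2 at an unadjusted p under 0.05. Microglial markers rose in 4 of 6 cases (Aif1, Csf1r, Trem2 and Tmem119). The other 2, Cx3cr1 (0.17) and P2ry12 (-0.27), were not called (adjusted p of limma = 0.426 and 0.170). List means were 2.68 to 3.09 in the active CRHR1 group and 2.10 to 2.61 in the Cre GFP group. The part of microglia in these changes was not tested. Pericyte markers rose in 2 of 8 cases (Notch3 and Kcnj8), with list means of -0.60 to -0.36 in the active CRHR1 group.

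The comparison of active CRHR1 with knockout bulbs sets the ends of the labels' ranking against each other, across both strains and both slides. It shares its arrays with the comparisons above and is no separate support for them. Here 4 genes were higher and 13 lower in the active CRHR1 group, which is 36.2% of the 47 against 25.6% of all genes (9.38% higher and 16.2% lower). The arrays of 12 genes did not overlap, against 18.6% of all genes. With slide as a block, which bridges the groups through the Cre GFP arrays, 2 remained, Col4a4 (-1.15, adjusted p = 0.0185) and Col3a1 (-1.18, adjusted p = 0.0432), and 2.48% of all genes were called.

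The 4 higher genes were Col7a1, the collagen of the anchoring fibrils under epithelia, the fibrillar Col24a1 and Col27a1, and Col11a2, a chain of cartilage fibrils. Col7a1 had levels of 2.75, 2.99, 2.72, 2.44 and 3.11 in the active CRHR1 group and 1.85, 1.84, 1.85, 1.07 and 0.81 in the knockout group, which did not overlap. It was higher by 1.32 ± 0.28 (adjusted p = 0.00660), or 2.49-fold, and its Cre GFP levels were 3.16, 1.78, 2.56, 2.69 and 1.74, which spanned the active CRHR1 range and reached into the knockout range, with knockout arrays 4 and 5 below every Cre GFP array. Col24a1 had 0.65, 0.97, 0.78, 0.31 and 0.65 in the active CRHR1 group, -0.0078, -0.25, 0.056, -0.82 and -1.52 in the knockout group and 1.13, -0.37, 0.35, 0.64 and -0.42 in the Cre GFP group, and was higher by 1.18 ± 0.33 in active CRHR1 than in knockout (adjusted p = 0.0215). Its Cre GFP arrays 2 and 5 lay among the knockout arrays and the others above them.

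Col27a1 had levels of -1.68, -1.54, -1.69, -1.82 and -1.65 in the active CRHR1 group, -2.15, -2.02, -2.06, -2.69 and -3.11 in the knockout group and -1.28, -2.32, -1.64, -1.35 and -2.35 in the Cre GFP group. It was higher by 0.73 ± 0.24 in active CRHR1 than in knockout (adjusted p = 0.0417). Col11a2 had -1.12, -1.63, -1.69, -1.77 and -1.27 in the active CRHR1 group, -1.85, -1.83, -2.00, -2.26 and -2.67 in the knockout group and -1.43, -2.12, -1.74, -1.54 and -1.92 in the Cre GFP group, and was higher by 0.63 ± 0.18 (adjusted p = 0.0256). All 4 were lowest on knockout array 5 and next lowest on knockout array 4. These were also the dimmest arrays, with 75th percentiles of 664 and 778, and Cre GFP arrays 2 and 5, the lowest of their group for each of these genes, were its dimmest at 826 and 935. The part of array brightness in these differences was not tested. With each array left out in turn, Col7a1 kept its call in all 15 cases, while Col24a1 lost it in 1, Col11a2 in 4 and Col27a1 in 8. None of the 4 was called against Cre GFP in either group, and none with slide as a block.

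**Figure D3:**
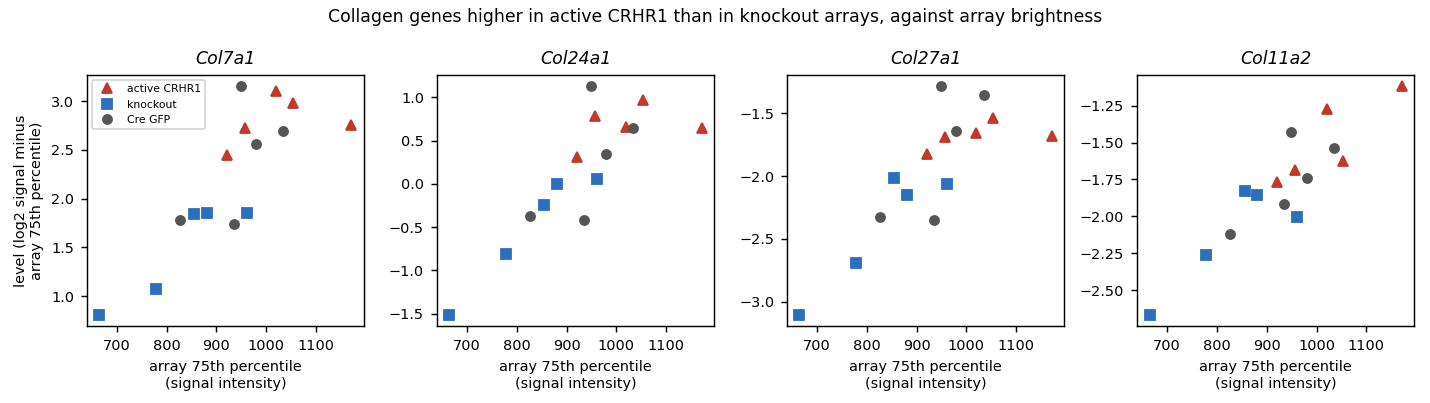
Levels of Col7a1, Col24a1, Col27a1 and Col11a2 (log2 signal minus the array's 75th percentile) against that percentile, for the 15 arrays of the active CRHR1, knockout and Cre GFP groups. The 2 dimmest arrays, knockout arrays 5 and 4 at 664 and 778, have the lowest levels of each gene.

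The 13 lower genes held all 6 that rose in the knockout group against Cre GFP. Their differences between active CRHR1 and knockout were -0.72 for Col3a1, -0.68 for Col4a4, -0.56 for Col9a2, -0.52 for Col4a5, -0.49 for Col4a6 and -0.41 for Lama4, with adjusted p from 0.00147 (Col9a2) to 0.0138 (Col4a6). Each of these calls held with every array left out in turn. The other 7 were Col28a1, Col14a1, Col13a1, Lama1, Col18a1, Lamc1 and Col23a1.

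Col28a1 had the largest difference, -1.42 ± 0.49 (adjusted p = 0.0481), from the levels given above, which overlap, and lost its call in 12 of 15 omissions. It was well above background on 4 active CRHR1 and 4 knockout arrays. Col14a1, at -5.04, -5.27, -4.77, -4.50 and -4.86 in the active CRHR1 group against the knockout levels given above, differed by -0.89 ± 0.22 (adjusted p = 0.0119), and its second probe gave -1.07. Col13a1, a transmembrane collagen of the neuromuscular junction, had -5.23, -4.96, -5.61, -4.89 and -5.32 in the active CRHR1 group, -4.06, -3.83, -4.42, -4.50 and -5.21 in the knockout group and -5.17, -5.14, -4.99, -4.87 and -4.83 in the Cre GFP group. Only knockout array 5 lay within the active CRHR1 range, and the difference was -0.80 ± 0.21 (adjusted p = 0.0178). Col18a1, the vascular basement membrane collagen from which endostatin is cut, had 0.32, -0.025, 0.33, 0.35 and 0.37 in the active CRHR1 group, 0.70, 0.63, 0.84, 0.53 and 0.44 in the knockout group and 0.26, 0.23, 0.42, 0.44 and 0.47 in the Cre GFP group. It differed by -0.36 ± 0.093 between active CRHR1 and knockout (adjusted p = 0.0159), without overlap, and its second probe by -0.36.

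Lama1, a laminin chain of the pial surface, had -0.74, -0.44, -0.31, -0.47 and -0.39 in the active CRHR1 group, -0.23, -0.22, 0.034, 0.15 and -0.25 in the knockout group and -0.65, -0.54, -0.40, -0.065 and -0.53 in the Cre GFP group. Its difference between active CRHR1 and knockout was -0.37 ± 0.12 (adjusted p = 0.0388). For Lamc1 the active CRHR1 levels given above overlapped those of the knockout group on knockout array 5 only, with a difference of -0.34 ± 0.11 (adjusted p = 0.0366). The transmembrane Col23a1 had 1.08, 1.06, 1.33, 1.01 and 0.98 in the active CRHR1 group, 1.65, 1.56, 1.48, 1.19 and 1.19 in the knockout group and 1.26, 1.08, 1.34, 1.34 and 1.12 in the Cre GFP group. Its difference between active CRHR1 and knockout was -0.32 ± 0.10 (adjusted p = 0.0380), and its other probes gave -0.30 and -0.44. Leaving out 1 array ended the calls of Lama1 and Lamc1 in 6 of 15 cases each and that of Col23a1 in 7.

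Other matrix genes and cell type markers were called in the same comparison, in which 9.38% of all genes were higher and 16.2% lower. Of 18 basement membrane partners, 1 was higher and 5 were lower in the active CRHR1 than in the knockout group, among them Nid1, the linker of laminin to type IV collagen (-0.41, adjusted p = 0.0437), and Fbln2, a fibulin (-0.57, adjusted p = 0.0299). Of 26 other matrix genes, 9 were lower and 0 higher, led by Vtn (-0.68), Ncan (-0.58), Lum (-0.70) and Dcn (-0.74), the gene of decorin. Of 28 collagen processing genes 6 were higher and 5 lower, of 20 receptors 4 and 3, of 23 proteases and inhibitors 3 and 8, and of 17 TGF-beta genes 3 and 2, without a test of any list against the share over all genes. Among markers, 6 of 7 for ensheathing glia, 4 of 8 for pericytes, 3 of 10 for fibroblasts and 2 of 6 for smooth muscle were lower. Ensheathing glia markers had list means of 3.16 to 3.34 in the active CRHR1 group and 3.67 to 3.90 in the knockout group, and fibroblast markers 1.20 to 1.46 in the active CRHR1 group and 1.53 to 1.69 in the knockout group. Of 10 endothelial markers, Ly6c1 was higher and 0 were lower. Of 6 astrocyte markers, Gfap was higher (1.67) and Slc1a3 lower (-0.55). Of 6 microglial markers, Aif1 was higher (1.46) and P2ry12 lower (-0.54). Of 5 neuronal markers 1 was higher and 2 were lower. Of 7 olfactory bulb markers 1 was lower, and of 4 choroid plexus markers 1. Of 6 cartilage and bone markers, Matn1 was higher, with 0 knockout arrays well above background. The part of these cells in the collagen and laminin differences was not tested.

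Some of the genes are neighbours in the genome. Col3a1 and Col5a2 are neighbours on chromosome 1, and in knockout against Cre GFP Col5a2, a chain that joins type I fibrils, differed by 0.47 (adjusted p = 0.320) where Col3a1 rose. Col6a1 and Col6a2 on chromosome 10, chains of the same beaded filament, gave -0.28 and -0.024, neither called.

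Within groups, single arrays were often the extreme ones. Knockout array 5 was the lowest of its group for 31 of the 47 genes (66.0%), against 24.6% of all genes, and knockout array 3 was the highest for 19. Cre GFP array 2 was the lowest of its group for 19 genes (40.4%, against 14.8% of all genes), and active CRHR1 array 5 the highest for 20 (42.6%, against 15.8%). The median SD within a group was 0.19 in the active CRHR1, 0.27 in the knockout and 0.27 in the Cre GFP group, against 0.15, 0.20 and 0.17 over all genes. The steadiest genes were Col6a3 in the active CRHR1 group (SD 0.055), Lamb2 in the knockout group (0.063) and Col9a2 in the Cre GFP group (0.055). The widest were Col28a1 in the active CRHR1 and knockout groups (0.68 and 1.20) and Col24a1 in the Cre GFP group (0.67).

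**Figure D4:**
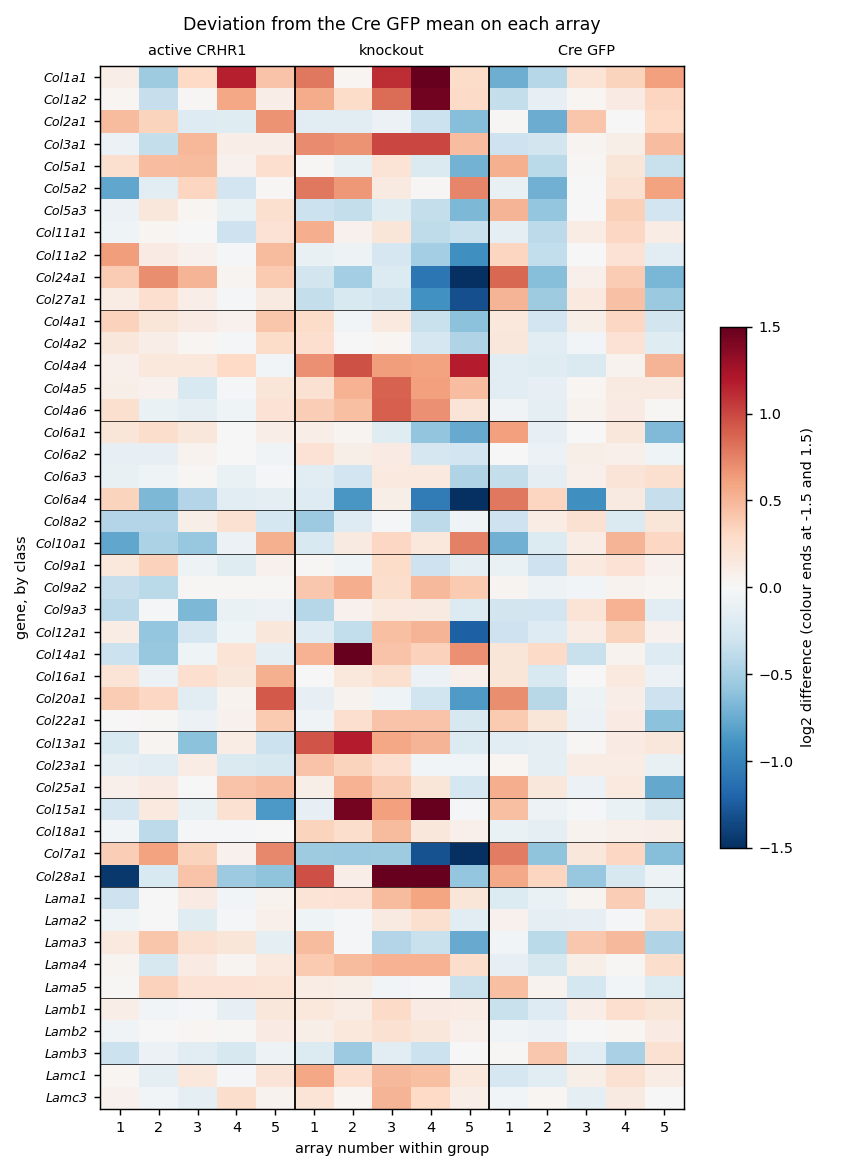
Level of the 47 tested genes on each of the 15 arrays minus the gene's Cre GFP mean (log2), by class from fibrillar collagens at the top to laminin gamma chains at the bottom, with groups in the order active CRHR1, knockout and Cre GFP. The column of knockout array 5 is the lowest of its group for 31 genes, and the rows of Col4a4, Col4a5 and Col4a6 are raised on all knockout arrays.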

How the data were processed

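Arrays were 1-colour Agilent mouse arrays, with 100 ng of bulb RNA amplified and labelled with Cy3, per the labels' protocols. The deposited scanner files hold spot intensity after background subtraction and detrending by Agilent Feature Extraction 10.7.3.1, with that program's flags for outlier, saturated and well-above-background spots, per the file headers. The authors' deposited series values are a ratio, each spot's processed intensity over the array's median of the 59305 spots that are not controls, as found from the values.

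Controls and outlier spots were dropped. No spot reached saturation. Each remaining log2 intensity had the 75th percentile of its array subtracted, and repeated spots were averaged per probe. The filter required the well-above-background flag on 4 or more arrays in a group, which left 33968 of 55681 probes, and the brightest of these stood for its gene. A single limma model (version 3.58.1, lmFit with eBayes, R 4.3.3) held all 15 arrays with group as the only term. P-values were adjusted by Benjamini-Hochberg over 27336 genes, at a threshold of 0.05. Files were read with version 1.17.8 of data.table, and Python 3.11.15 with pandas 2.3.3 and matplotlib 3.10.9 drew the figures. Of these steps, only the limma fit with its adjustment was tested on simulated data, in the comparisons with Cre GFP.

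The genes described, the related lists, the marker lists and the alternatives were chosen with earlier results of these data known. Values per array are given for every called gene, for the largest change of each comparison and for a set of network chains. From the related lists, up to 4 called genes of smallest p are named per comparison, with exceptions chosen after their values were seen (Mmp17, Adamts5, Nid1 and Fbln2), and called markers are named where they are few. A gene that matches the naming rule is not reported here, and counts of collagen and laminin genes leave it out. The labels give 5 animals per group, so the p-values measure the spread between mice. Probe coordinates are mm9, per the file headers, and RefSeq windows are on GRCm38.p6. Exon or UTR positions of the probes were not determined. The number of arrays limits the precision.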

Additional observations from a re-analysis of the deposited data

Results flagged for a closer look

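Within groups of 5 arrays, 5 of 141 group and gene pairs had an array far from the other 4 by Dixon's test, where chance flags about 1 in 20. Col18a1 and Lama4 were both lowest on active CRHR1 array 2, at -0.025 (the others between 0.32 and 0.37) and 0.063 (0.34 to 0.45). Col23a1 was highest on active CRHR1 array 3, at 1.33 (0.98 to 1.08). Col14a1 was highest on knockout array 2, at -3.15 (-4.36 to -4.02), an array that earlier work on these data had doubted, and without knockout arrays 2 and 5 its difference between active CRHR1 and knockout was -0.61 (adjusted p of limma = 0.0421). Lamb1 was highest on knockout array 3, at 1.34 (1.17 to 1.21).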

How the results depend on the processing

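In knockout against Cre GFP, the count of 6 called collagen and laminin genes was 1 with the authors' scaled values, 1 with no filter on dim probes, 3 with only the 2 groups compared, 4 with slide as a fixed block, 1 on slide 1 alone, 2 without knockout arrays 2 and 5, and 1 to 7 with 1 array left out. It was 6 or 7 with quantile normalization, normexp background correction, median centring, slide as a random block, array weights, a stricter filter or all probes averaged. With all probes averaged, Col4a6 lost its call and Col14a1 gained one, and with normexp Col13a1 was gained. Col4a4 was called in each of the 13 settings other than the omissions, and lost its call without knockout arrays 2 and 5. In active CRHR1 against Cre GFP the count by limma was 0 in each setting and omission. In active CRHR1 against knockout the count of 17 was 2 with slide as a fixed block, 11 to 18 with 1 array left out (11 without knockout array 4 or without active CRHR1 array 1), and 12 to 23 in the other settings. Same-numbered arrays did not deviate together (median correlation -0.016, range -0.22 to 0.40, and 4 of 15 arrays correlated best with their own number), so the numbers pair no samples. With the replicate number as a block, knockout against Cre GFP gave 3 called genes, and the other comparisons 0 and 18. Over all genes, the share of higher calls in knockout against Cre GFP was 58.6% as reported, 33.2% with the authors' scaled values, 42.3% without knockout arrays 2 and 5 and 52.3% to 68.6% in the other settings. In active CRHR1 against knockout it was 36.6% as reported, 47.9% with the authors' scaled values, 47.3% with slide as a fixed block, 25.3% with normexp and 28.3% to 44.9% in the other settings. In active CRHR1 against Cre GFP it was 46% as reported, 54% with the authors' scaled values, 66.4% with slide as a fixed block, 78.7% on slide 2 alone, 66.1% with no filter and 34.3% to 55.3% in the other settings. These ranges leave out the omissions of 1 array. The 23 cases of a called gene in a comparison kept their direction in every setting. Of 1440 single-gene values under other settings, 53 changed sign, none of them called (sizes up to 0.224). The number of arrays limits the precision. The cause of a lost call was not tested.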
